A study of Mus musculus with 24 samples.

Results

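Transcript levels were examined for 10 genes of heterochromatin and H3K9 methylation, out of 35591 genes counted, during the differentiation of male mouse embryonic stem cells (mESCs) to neuromesodermal progenitors (NMPs). The members were chosen by name, as the rows of the count table for Trim28, Setdb1, Ehmt1, Ehmt2, Suv39h1, Suv39h2, Cbx1, Cbx3, Cbx5 and Hells, and 10 of 10 were found. Poly(A) RNA was sequenced from 6 lines on day 0, day 2, day 2.5 and day 3, which gave 24 libraries in 8 groups of 3. The 3 wt lines carried Smchd1 fl/+ and the 3 het lines Smchd1 del/+, so the wt lines held a floxed copy of Smchd1 and the het lines a deleted copy. All lines came from Castaneus mothers with intact Smchd1 and C57BL/6 fathers that carried the del and fl alleles and an MMTV-Cre transgene, so the altered copy was the paternal one. Each line was derived from a single blastocyst and is F1 between the strains. The cells were in LIF medium at day 0 and in N2B27 medium with bFGF from then on, and the Wnt activator CHIR99021 was added at day 2, in both genotypes alike.

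Methylation of lysine 9 on histone H3 (H3K9) marks compact, silent chromatin. SETDB1, G9a (encoded by Ehmt2), GLP (Ehmt1), SUV39H1 and SUV39H2 are enzymes that place the mark, and the heterochromatin protein 1 (HP1) family, encoded by Cbx1 (HP1 beta), Cbx3 (HP1 gamma) and Cbx5 (HP1 alpha), binds it. TRIM28, also called KAP1, is a corepressor that KRAB zinc finger proteins bring to DNA and that recruits SETDB1, a route known in mESCs for the silencing of endogenous retroviruses. HELLS, also called LSH, is a chromatin remodeller of the SNF2 family that is needed for DNA methylation at repeats.

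The sequences just upstream of the RefSeq start sites are shown for the 4 members that were lowest at day 3 relative to day 0 and for the member that rose, because these carry the main change described here. They are from GRCm38.p6, 5′ to 3′ on the strand of the gene, and lie at chr7:13023902-13024151 (plus strand), chr17:34898224-34898473 (plus), chr11:96788885-96789134 (plus), chr19:38930740-38930944 (plus) and chrX:8074761-8075010 (minus). Capitals mark matches on either strand. The GC box was searched as GGGCGG and the E-box as CACGTG. The CCAAT box was searched by its own letters. The E2F motif was searched as TTTCCCGC or TTTGGCGC or TTTCGCGC or TTTGCCGC.
Trim28: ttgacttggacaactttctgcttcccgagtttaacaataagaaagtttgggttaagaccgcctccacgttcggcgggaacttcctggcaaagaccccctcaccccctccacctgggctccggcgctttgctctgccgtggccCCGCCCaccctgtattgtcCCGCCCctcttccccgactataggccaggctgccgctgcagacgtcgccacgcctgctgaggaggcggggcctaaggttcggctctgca
Ehmt2: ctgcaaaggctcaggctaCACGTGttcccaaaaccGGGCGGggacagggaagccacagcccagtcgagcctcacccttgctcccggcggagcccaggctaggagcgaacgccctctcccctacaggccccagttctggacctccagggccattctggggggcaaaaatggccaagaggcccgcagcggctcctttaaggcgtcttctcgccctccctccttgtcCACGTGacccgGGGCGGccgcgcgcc
Cbx1: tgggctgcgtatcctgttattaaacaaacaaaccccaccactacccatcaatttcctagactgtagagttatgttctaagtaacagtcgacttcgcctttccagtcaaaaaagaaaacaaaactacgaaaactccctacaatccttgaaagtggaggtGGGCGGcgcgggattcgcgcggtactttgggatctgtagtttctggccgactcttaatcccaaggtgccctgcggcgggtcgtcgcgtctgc
Hells: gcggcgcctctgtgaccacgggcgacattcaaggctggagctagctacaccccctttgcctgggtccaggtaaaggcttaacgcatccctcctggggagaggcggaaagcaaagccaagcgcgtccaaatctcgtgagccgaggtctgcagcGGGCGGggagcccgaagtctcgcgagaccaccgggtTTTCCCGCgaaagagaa
Suv39h1: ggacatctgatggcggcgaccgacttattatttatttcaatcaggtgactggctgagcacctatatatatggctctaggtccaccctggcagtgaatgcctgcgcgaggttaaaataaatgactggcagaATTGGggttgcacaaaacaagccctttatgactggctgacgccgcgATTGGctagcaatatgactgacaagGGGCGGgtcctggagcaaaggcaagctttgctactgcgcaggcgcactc
A GC box was found in the 250 bases upstream of the start of 10 of 10 members, against 32.7% of 32851 RefSeq promoters of the same length. The GC content of these windows ran from 49.6% in Cbx1 to 73.2% in Cbx3, against a median of 52.4% over all windows. The E2F motif was in 2 members, Hells and Cbx3, against 1.86% of promoters. The RefSeq start used for Cbx3 lies 256 bases inside the annotated gene. Of the 250 bases of its window, 152 lie in annotated exons of Cbx3, as do 75 of the Hells window in exons of Hells. The CCAAT box was in Setdb1, Suv39h1 and Cbx5, against 33.9% of promoters, and the E-box in Ehmt2 and Cbx5, against 6.02%. The ETS core CCGGAAG was in Setdb1, against 6.91% of promoters. No match was found in these windows for the YY1 and NRF1 motifs, for the octamer ATGCAAAT or for the TCF/LEF motif CTTTGAT. The letters were matched without any allowance for mismatches, and no binding was measured.

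Library totals ran from 7.10 to 20.8 M (mega) counts, with a median of 17.9 M, and the smallest library was line 2 of wt at day 2.5. Libraries of one group correlated at Pearson r 0.960 to 0.990 across genes on log2 counts per M (CPM), over 24 pairs. Smchd1, the deleted gene, was lower in each het library than in each wt library of its day. The gap between the groups was narrowest at day 0, when its wt values lay from 131 to 149 CPM and its het values from 89.4 to 101 CPM. The summed level of 6 naive pluripotency markers fell within 2349 to 2540 CPM in wt at day 0 and 271 to 405 CPM at day 3, and all 6 were lower at day 2 than at day 0 in both genotypes by the edgeR test. The summed level of 6 NMP markers, which include Sox2, lay between 49.0 and 92.0 CPM in wt at day 2 and between 645 and 1252 CPM at day 2.5. Markers of extraembryonic endoderm were present in these lines. Their summed level over 17 genes in wt was 1678 to 2889 CPM at day 0 and 5372 to 10936 CPM at day 2, with Afp and Ttr at 0 in all wt libraries of day 0. In het it was 987 to 1460 CPM at day 0 and 3206 to 4519 CPM at day 2. Trophoblast markers summed to at most 211 CPM and fibroblast markers to at most 47.9 CPM in any library. The part of these cells in the changes below was not tested, and in bulk libraries fewer cells of a type and less RNA per cell cannot be told apart.

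**Figure D1:**
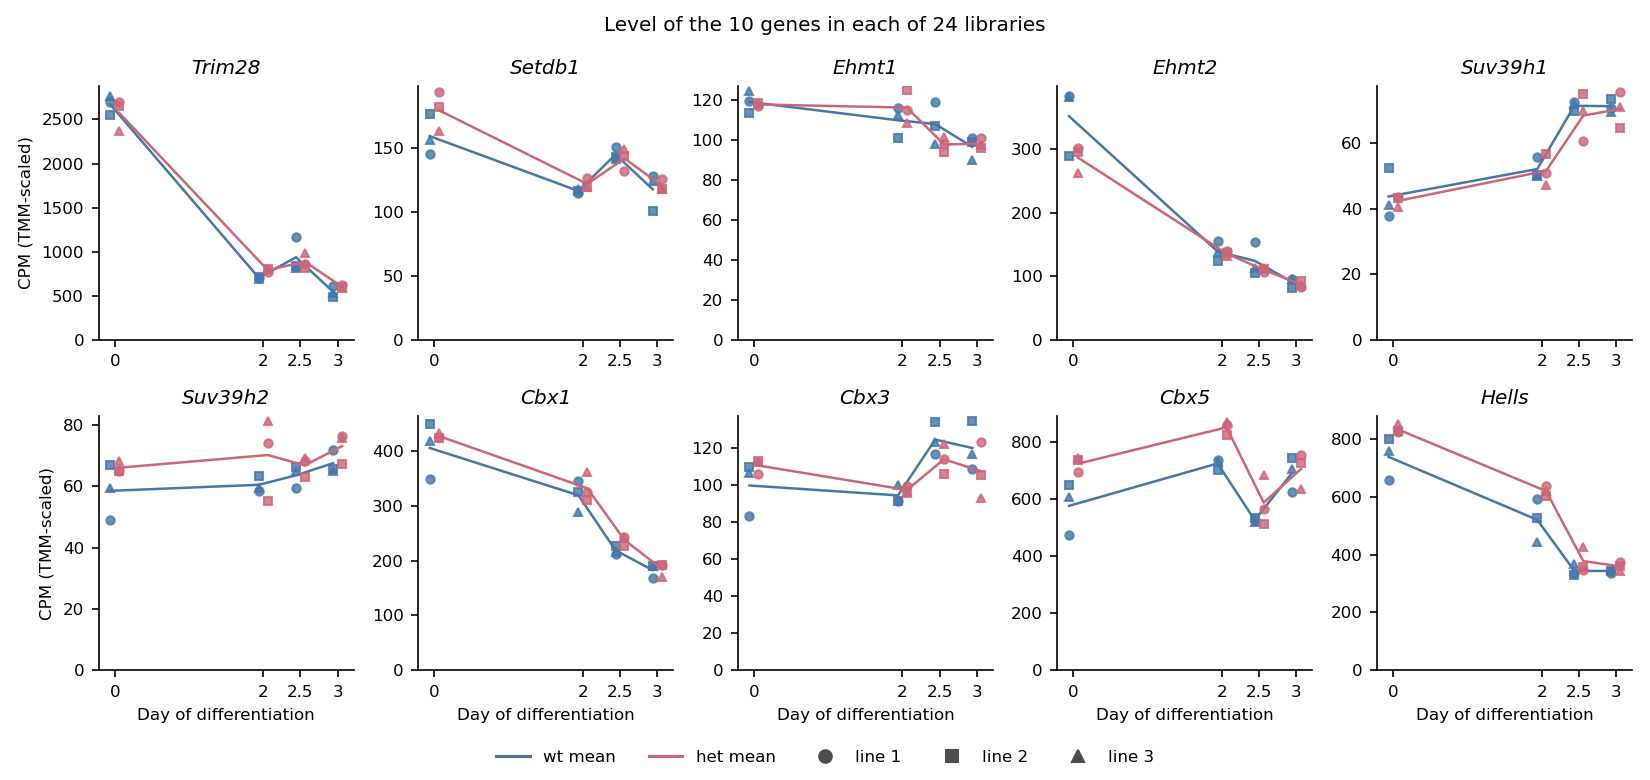
Level of each of the 10 genes in CPM (vertical axis, from 0, a scale of its own in each panel) by day of differentiation, with 1 point per library, blue for wt and red for het, a marker shape for each line and a line through the group means. Trim28 lies between 2372 and 2766 CPM at day 0 and at 1163 CPM or lower on every later day, Ehmt2, Cbx1 and Hells descend, and Suv39h1 ascends.

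Trim28 had the largest change of the members over 3 days. In wt lines 1, 2 and 3 it was at 2694, 2552 and 2766 CPM at day 0, then at 699.8, 715 and 691 CPM at day 2. At day 2.5 these lines had 1163, 837 and 809 CPM and at day 3 they had 606, 490.2 and 534 CPM. In het lines it was at 2703, 2650 and 2372 CPM, then at 770, 800.5 and 801 CPM, then at 856, 813 and 988 CPM, and at last at 625, 598 and 583 CPM. No library of a later day reached the lowest library of day 0, and the greatest part of the descent was over by day 2. The mean at day 3 stood at 20.3% of that at day 0 for wt and 23.4% for het. Its log2 fold change of day 3 against day 0 was -2.29 ± 0.093 (SE) in wt (adjusted p = 2.43e-09) and -2.09 ± 0.064 in het (adjusted p = 6.70e-11), which put Trim28 within the lowest 4.36% and 4.88% of all genes tested. Between day 2 and day 2.5, the interval in which Wnt signalling was activated, Trim28 rose in wt by 0.41 ± 0.131 on the log2 scale (adjusted p = 0.0306). The call was lost on leaving out any 1 wt line, though Trim28 was higher at day 2.5 in all 3, by 0.23 to 0.73 on the log2 scale. Line 1 stood above the other wt lines at day 2.5. In het the same step gave 0.14 ± 0.078 (adjusted p = 0.154), with all 3 lines higher at day 2.5. Trim28 then fell between day 2.5 and day 3, by 0.78 ± 0.139 in wt and by 0.58 ± 0.087 in het. The wt call at this step was lost without line 2. The gene lies on chromosome 7 at 12999114 to 13031035.

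Of the methyltransferases, Ehmt2 changed most. It was at 384, 289 and 383 CPM in wt lines 1, 2 and 3 at day 0 and at 94.96, 81.8 and 96.3 CPM at day 3. In het lines it was at 303, 295 and 262 CPM at day 0 and at 82.7, 92.1 and 86.8 CPM at day 3. The days did not overlap in either genotype, and the wt lines at day 0 spread over more than the het lines did. Ehmt2 fell by day 2 (log2 fold change -1.33 ± 0.128 in wt and -1.07 ± 0.067 in het), and its day 3 mean was 25.9% of day 0 in wt and 30.4% in het (-1.94 ± 0.124, adjusted p = 9.49e-08, and -1.71 ± 0.074, adjusted p = 1.28e-09). Ehmt1, whose product GLP forms a heterodimer with G9a, moved little. Its mean was 119 ± 5.40 CPM (SD, n = 3) at day 0 and 96.6 ± 5.82 CPM at day 3 in wt, and 118 ± 0.847 and 98.2 ± 2.70 CPM in het. The change over 3 days passed the test in both genotypes (-0.29 ± 0.099, adjusted p = 0.0236, and -0.26 ± 0.064, adjusted p = 0.00332). With library totals in place of composition factors it did not pass in either, and in wt it did not pass without line 3 or without the filter on low counts.

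Setdb1, the enzyme that TRIM28 recruits, fell by day 2 in both genotypes. The wt lines had 145, 177 and 156 CPM at day 0, then 115, 117 and 118 CPM, then 151, 143 and 141 CPM, and 129, 101 and 124 CPM at day 3. In het it was at 194, 182 and 163 CPM at day 0, and its mean was 122 ± 4.06, 142 ± 8.87 and 121 ± 4.19 CPM on the later days. The wt libraries of day 2 all lay under those of day 0 and day 2.5. The first step was called in both genotypes (-0.45 ± 0.106 in wt, adjusted p = 0.00344, and -0.55 ± 0.074 in het, adjusted p = 1.34e-05). The rise at day 2.5 was 0.31 ± 0.108 in wt (adjusted p = 0.0437, and 0.0642 with the line as a block). Its call was lost on leaving out any 1 wt line, though Setdb1 rose in all 3, by 0.26 to 0.40 on the log2 scale. In het the rise was 0.20 ± 0.082 (adjusted p = 0.0624). The step from day 2.5 to day 3 was -0.30 ± 0.110 in wt (adjusted p = 0.0835) and -0.26 ± 0.078 in het (adjusted p = 0.0263). Over 3 days Setdb1 fell by 0.43 ± 0.113 in wt and by 0.57 ± 0.074 in het. The wt call over 3 days was lost without line 2.

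Suv39h1 was the one member called higher at day 3 in both genotypes. Its levels in wt lines were 37.7, 52.4 and 41.1 CPM at day 0 and 70.9, 73.5 and 69.5 CPM at day 3. In het lines they were 43.5, 43.2 and 40.4 CPM at day 0 and 75.6, 64.7 and 71.1 CPM at day 3. The days did not overlap. The day 3 mean was 163% of day 0 in wt and 166% in het (0.71 ± 0.133, adjusted p = 0.000625, and 0.74 ± 0.087, adjusted p = 8.02e-06). The rise between day 2 and day 2.5 was 0.45 ± 0.126 in wt and 0.39 ± 0.111 in het, and the step from day 2.5 to day 3 was 0.00 ± 0.104 and 0.02 ± 0.1001. Suv39h1 lies on chromosome X at 8061171 to 8074760, and 14.6% of its exon bases are overlapped by Gm14820 on the other strand. The kit was either stranded or not, and which it was is not stated per library, so reads of these genes cannot be told apart there. Suv39h2, its paralogue on chromosome 2, was not called at any step or over 3 days. With library totals its difference between day 3 and day 0 in het was called (0.27, adjusted p = 0.0119). Its group means stayed between 58.5 ± 8.98 CPM (SD, n = 3, wt day 0) and 73.1 ± 5.10 CPM (het day 3), and its largest log2 fold change over 3 days was 0.22 ± 0.126 (wt, adjusted p = 0.171).

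The 3 HP1 genes each followed a course of their own. Cbx1 was at 349, 449 and 418 CPM in wt lines at day 0, 345, 325 and 288 CPM at day 2, 212, 227 and 216 CPM at day 2.5 and 167, 189 and 191 CPM at day 3. In het lines it was at 426, 424 and 433 CPM at day 0 and at 192, 192 and 171 CPM at day 3. Within every one of the 6 lines Cbx1 was lower at each later day than at the day before. Its log2 fold change over 3 days was -1.14 ± 0.108 in wt (adjusted p = 2.53e-06) and -1.20 ± 0.065 in het (adjusted p = 7.05e-09). Cbx5 alternated. Its wt values were 474, 649 and 606 CPM at day 0, 737, 703 and 735 CPM at day 2, 528, 532 and 518 CPM at day 2.5 and 624, 743 and 706 CPM at day 3. In het the values were 694, 736 and 743 CPM, then 861, 823 and 870 CPM, then 564, 513 and 686 CPM, and 753, 727 and 635 CPM. The day 2 libraries were above those of day 0 and day 2.5 in both genotypes. Cbx5 rose to day 2 by 0.34 ± 0.110 in wt and 0.24 ± 0.050 in het, and fell to day 2.5 by 0.47 ± 0.096 and 0.56 ± 0.091. The wt values at day 3 were above those at day 2.5 (0.40 ± 0.098, adjusted p = 0.0183), while the het step gave 0.24 ± 0.108 (adjusted p = 0.113). The wt call of the rise to day 2 was lost without line 1 or line 3. That of the fall to day 2.5 was lost without line 3, and that of the rise to day 3 without line 2 or line 3. Each change had the same direction in all 3 wt lines, at 0.12 to 0.64, -0.51 to -0.40 and 0.24 to 0.48 on the log2 scale in turn. Over 3 days Cbx5 was at 0.27 ± 0.116 in wt (adjusted p = 0.0665, and 0.01002 with the line as a block, called under 7 of 10 alternatives) and at -0.03 ± 0.069 in het (adjusted p = 0.677).

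Cbx3, the third HP1 gene, was called at a single step. Its group means ran from 94.3 ± 4.96 CPM (SD, n = 3) to 124 ± 8.64 CPM, both in wt, at day 2 and day 2.5, and this was the step called (0.40 ± 0.117, adjusted p = 0.0223). The call was lost without line 2 or line 3, though Cbx3 rose in all 3 wt lines, by 0.30 to 0.55 on the log2 scale. In het the step gave 0.21 ± 0.084 (adjusted p = 0.0601). Over 3 days Cbx3 gave 0.28 ± 0.127 in wt (adjusted p = 0.0853, and 0.0243 with the line as a block). Of the 75-base stretches of its longest coding transcript, 73.7% occur in no other annotated gene. The rest are shared with 10 other genes, processed pseudogenes of Cbx3 among them, so its counts are uncertain where the counting could split such reads. The share was 81.0% for Suv39h1, 93.3% for Setdb1, 96.9% for Suv39h2 and 100% for the other members.

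Hells fell in both genotypes and had reached its lower level by day 2.5. The wt lines had 658, 799 and 758 CPM at day 0, then 592, 526 and 443 CPM, then 335, 330.1 and 366 CPM, and 336, 344 and 350.3 CPM at day 3. The het lines had 823, 827 and 853 CPM at day 0, then 638, 602 and 620.1 CPM, then 348, 358 and 427 CPM, and 375, 361 and 342 CPM at day 3. Each day up to day 2.5 lay wholly under the day before. The day 3 mean was 46.5% of day 0 in wt and 43.0% in het (-1.10 ± 0.091, adjusted p = 8.16e-07, and -1.21 ± 0.058, adjusted p = 2.85e-09). The step from day 2.5 to day 3 was 0.00 ± 0.091 in wt and -0.10 ± 0.088 in het, neither of which passed the test.

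**Figure D2:**
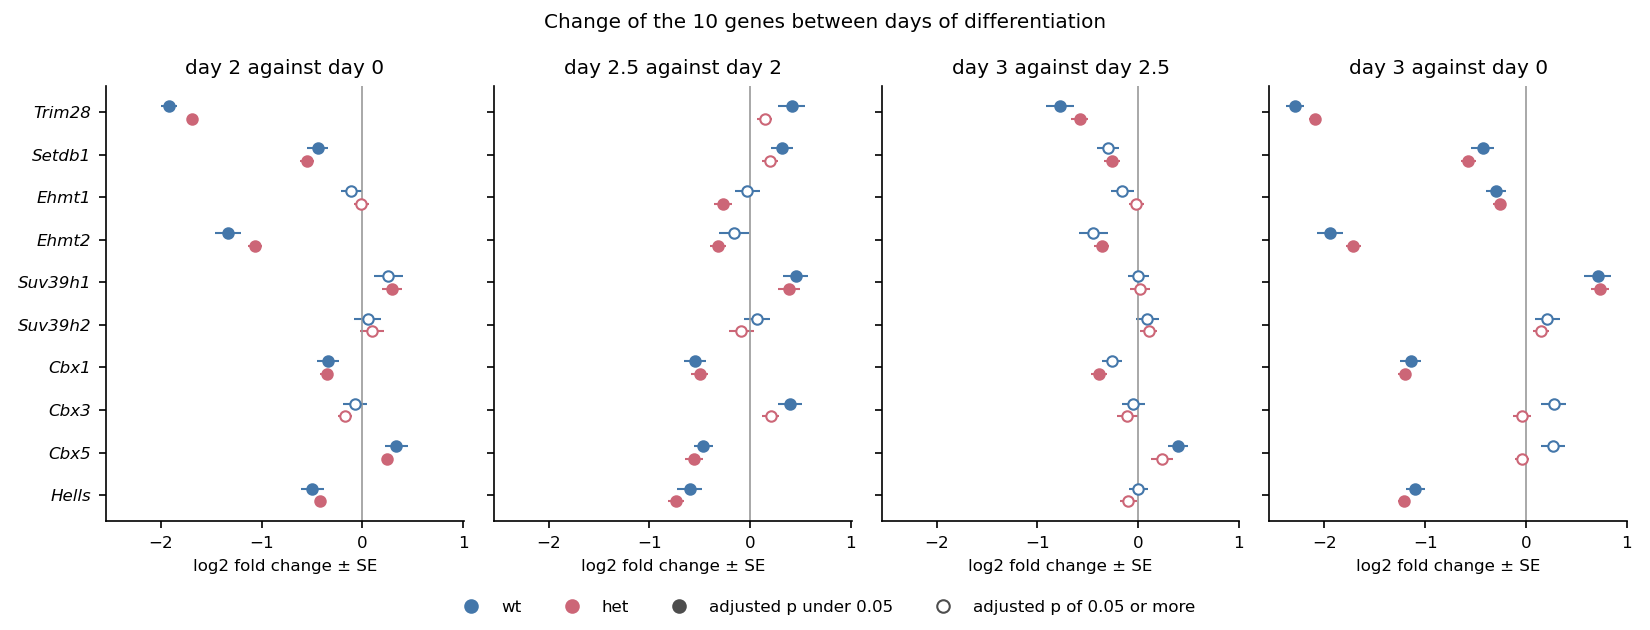
Log2 fold change of each member (horizontal axis, ± SE) for the 3 steps between days and for day 3 against day 0, with wt in blue, het in red and filled points for an adjusted p under 0.05. Over 3 days 6 genes are filled on the left of 0 and Suv39h1 is filled on the right in both genotypes.

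Across the time course, 7 of 10 members passed the test for day 3 against day 0 in wt (1 higher, 6 lower), where 53.6% of all 15488 genes tested did. In het it was also 7 of 10 (1 higher, 6 lower), where 64.3% of genes did. Among all genes the calls were near evenly split, with 27.0% higher and 26.6% lower in wt and 32.7% higher and 31.6% lower in het. The median log2 fold change of the members was -0.36 in wt and -0.41 in het, beside 0.03 and 0.02 over all genes. For day 2 against day 0, 6 members were called in wt (1 higher, 5 lower) and 7 in het (2 higher, 5 lower). The background was 44.3% of all genes in wt (22.4% higher, 21.9% lower) and 56.1% in het (28.0% higher, 28.1% lower). The members that fell at this step in both genotypes were Trim28, Setdb1, Ehmt2, Cbx1 and Hells. The wt call of Cbx1 was lost without line 2 (adjusted p = 0.119) or line 3 (adjusted p = 0.218), and that of Hells without line 3 (adjusted p = 0.0670). The het call of Suv39h1 at this step was lost without line 1 (adjusted p = 0.0951) or line 2 (adjusted p = 0.1496). Suv39h1 rose in all 3 het lines, by 0.22 to 0.39 on the log2 scale. For day 2.5 against day 2, 7 members were called in wt (4 higher, 3 lower) and 6 in het (1 higher, 5 lower), beside 29.1% of all genes in wt (14.6% higher, 14.5% lower) and 44.7% in het (21.8% higher, 22.9% lower). Cbx1, Cbx5 and Hells fell and Suv39h1 rose in both. The wt call of Hells was lost without line 2 (adjusted p = 0.0531) and that of Suv39h1 without line 2 (adjusted p = 0.115) or line 3 (adjusted p = 0.148), while the het call of Suv39h1 was lost without line 3 (adjusted p = 0.0593). Ehmt1 (-0.27 ± 0.087) and Ehmt2 (-0.32 ± 0.079) were called lower in het at this step. Ehmt1 lost this call without het line 1 (adjusted p = 0.136) or line 2 (adjusted p = 0.207) and Ehmt2 without het line 1 (adjusted p = 0.101). For day 3 against day 2.5, 2 members were called in wt (Trim28 lower, Cbx5 higher) and 4 in het (Trim28, Setdb1, Ehmt2 and Cbx1, all lower), beside 19.1% of all genes in wt (8.99% higher, 10.1% lower) and 29.8% in het (13.8% higher, 16.0% lower). Without het line 3 the het calls of Setdb1 (adjusted p = 0.233), Ehmt2 (adjusted p = 0.0718) and Cbx1 (adjusted p = 0.0659) were lost and Cbx5 was called higher (0.45, adjusted p = 0.0226), and Setdb1 was also lost without het line 2 (adjusted p = 0.173). With the line as a block the wt count of this last step was 5, where 30.7% of all genes were called, through Setdb1 (-0.30, adjusted p = 0.0297), Ehmt2 (-0.43, adjusted p = 0.00651) and Cbx1 (-0.26, adjusted p = 0.0382). None of the members passed the edgeR test of a genotype by day interaction at any of the 3 steps, where 0 of all genes did and where the DESeq2 Wald test called 0 members. Unadjusted p-values were under 0.05 for 6.31%, 5.13% and 3.85% of all genes at these steps. One member, Trim28, had an unadjusted p under 0.05 there, at day 2 against day 0 (0.24 ± 0.088, adjusted p = 0.754), and the genotypes were not shown to differ in their time course.

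Levels of different genes can be set side by side only per length. On the scale of CPM per kilobase of merged exons, Trim28 came first on every day in both genotypes, at 642 ± 26.1 (SD, n = 3) in wt at day 0 and 131 ± 14.1 at day 3. In wt at day 0 it was followed by Hells (102 ± 10.02), Cbx1 (94.9 ± 12.02), Ehmt2 (64.1 ± 9.99) and Cbx5 (64.0 ± 10.1), of which Hells and Cbx1 overlapped over the lines, as did Ehmt2 and Cbx5. Setdb1 (23.3 ± 2.31), Cbx3 (16.6 ± 2.43), Ehmt1 (14.7 ± 0.666), Suv39h2 (13.3 ± 2.04) and Suv39h1 (8.30 ± 1.46) made up the lower part. The range between members was narrower at day 3, when Cbx5 (76.7 ± 6.72) came second and Ehmt1 (11.9 ± 0.717) last in wt. Ehmt2 had moved down to the seventh place (16.6 ± 1.46), where it overlapped Setdb1 (17.2 ± 2.15) and Suv39h2 (15.3 ± 0.876). Other than that of Trim28, these places can shift with the lengths used. On the length of the longest coding transcript, Cbx1 had rank 2 and Suv39h2 rank 10 in wt on both of these days. At day 3 Cbx5 then had rank 3, Ehmt2 rank 8 and Ehmt1 rank 9.

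The balance within families followed from these courses. Of the summed per-kilobase level of the HP1 genes, Cbx1 made up 54.1% ± 0.857 (SD, n = 3) in wt at day 0 and 30.7% ± 0.840 at day 3. Cbx5 made up 36.4% ± 0.738 and 55.0% ± 0.247, and Cbx3 made up 9.47% ± 0.203 and 14.3% ± 0.671. In het the share of Cbx1 went from 50.3% ± 0.854 to 31.1% ± 0.829 and that of Cbx5 from 40.4% ± 0.696 to 56.1% ± 0.178. The order of Cbx1 and Cbx5 was thus turned around between day 0 and day 3 in all 6 lines. The absolute shares depend on the lengths used, since on the length of the longest coding transcript Cbx1 ranked above Cbx5 at day 3 as well, while the direction of change in the ratio does not. The per-kilobase ratio of Ehmt1 to Ehmt2 was 0.23 ± 0.030 in wt and 0.28 ± 0.023 in het at day 0, and 0.72 ± 0.094 and 0.76 ± 0.061 at day 3. The ratio of Suv39h1 to Suv39h2 was 0.63 ± 0.041 and 0.54 ± 0.037 at day 0 and 0.89 ± 0.058 and 0.81 ± 0.021 at day 3. Which of these genes was the higher depends on the lengths used. On the length of the longest coding transcript, Suv39h1 had the higher mean at day 3 in wt (22.9 against 15.6) and het (22.6 against 16.9). At day 0 Suv39h1 was then the higher in wt (14.0 against 13.5) and the lower in het (13.6 against 15.3). Coding sequences of these relatives were 71.1% to 72.5% identical for the HP1 pairs, 65.01% for Ehmt1 and Ehmt2 and 62.3% for Suv39h1 and Suv39h2 over aligned bases.

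**Figure D3:**
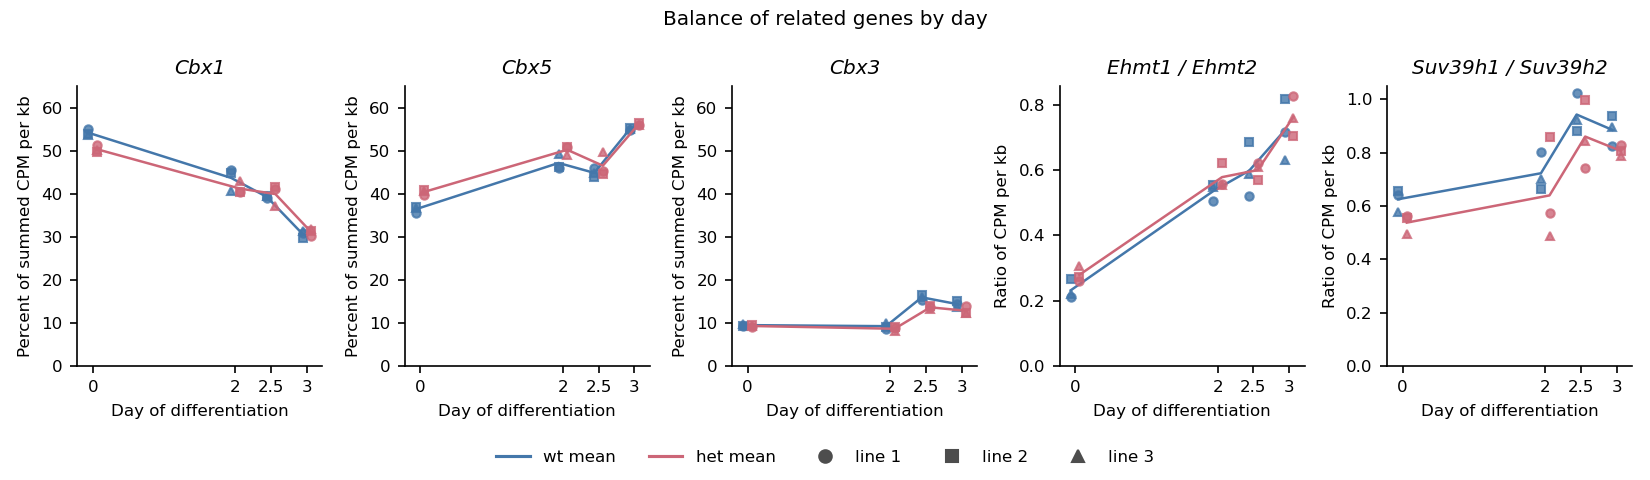
Share of Cbx1, Cbx5 and Cbx3 in the summed CPM per kilobase of the 3 HP1 genes (percent, left panels) and per-kilobase ratios of Ehmt1 to Ehmt2 and of Suv39h1 to Suv39h2 (right panels) by day, with 1 point per library and lines through the group means. The Cbx1 share descends from above 49% to under 32% while the Cbx5 share climbs from under 41% to above 54%.

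Other genes of the pathway were described from lists chosen by function, with earlier results of these data known. Their counts and medians are therefore a description and no independent support. Over the 47 of 48 genes that could be tested, 35 were called for day 3 against day 0 in wt, 7 higher and 28 lower, and 34 in het, 5 higher and 29 lower. Among all genes tested, 53.6% were called in wt (27.0% higher, 26.6% lower) and 64.3% in het (32.7% higher, 31.6% lower). The median log2 fold change of the 47 genes was -0.46 in wt and -0.45 in het, beside 0.03 and 0.02 over all genes. The counts and medians of the single lists, most of which hold 10 genes or fewer, stand against these same shares and medians. Of 4 KRAB zinc finger genes whose products recruit TRIM28, 3 fell and none rose in each genotype (median -1.46 in wt and -1.68 in het). Among them was Zfp57, which protects imprinted methylation and went from 302 ± 16.2 to 46.7 ± 4.34 CPM in wt (SD, n = 3, log2 fold change -2.68 ± 0.107). Of 8 cofactors of SETDB1 and the HUSH complex, 2 rose and 4 fell in wt and 2 rose and 5 fell in het (median -0.61 and -0.70). Resf1, a SETDB1 partner in the silencing of retroviruses, fell from 296 ± 40.5 to 74.7 ± 9.49 CPM in wt. Of 4 partners of G9a and GLP, 1 rose and 3 fell in wt and 2 fell in het (median -0.77 and -0.40). The zinc finger gene Zfp462 went from 178 ± 9.88 to 61.0 ± 5.02 CPM and Zfp644 from 79.8 ± 6.74 to 100.0 ± 5.52 CPM in wt, both past the test.

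Of 4 other genes listed as H3K9 methyltransferases, 3 fell in each genotype (median -1.27 and -1.02). Among them was Prdm16, from 3.196 ± 0.391 CPM to 0.322 ± 0.352 CPM in wt, which is close to the level of 3 counts. Mecom came as near to it, from 1.44 ± 0.382 to 0.279 ± 0.281 CPM in wt. The other gene that fell, Prdm2, was well above it, from 81.0 ± 3.25 to 66.9 ± 4.31 CPM in wt (log2 fold change -0.27 ± 0.106). Of 10 H3K9 demethylases, 2 rose and 5 fell in wt and 2 rose and 6 fell in het (median -0.27 and -0.18), where 27.0% of all genes were called higher and 26.6% lower in wt and 32.7% and 31.6% in het. Kdm3a went from 298 ± 25.1 to 140 ± 7.08 CPM (-1.08 ± 0.094) and Phf2 from 10.9 ± 1.08 to 24.9 ± 1.70 CPM (1.19 ± 0.171) in wt, so that enzymes for placing and for removing the mark both included genes that fell. Of 10 tested partners of HP1 and histone chaperones, 1 rose and 5 fell in wt and 5 fell in het (median -0.34 and -0.28). Daxx, a chaperone of histone H3.3, fell by 1.18 ± 0.117 on the log2 scale, and Chaf1b, a subunit of the chromatin assembly factor, rose by 0.39 ± 0.099. The eleventh, Sp100, was too low to test. Of 7 partners of HELLS and of DNA methylation maintenance, 1 rose and 5 fell in each genotype (median -0.50 and -0.45). Dnmt3b, a de novo DNA methyltransferase, went from 939 ± 27.2 to 162 ± 21.2 CPM in wt, and Cdca7l rose by 0.47 ± 0.131. Of 13 genes of S phase and proliferation, which moved beside the members, 1 rose and 8 fell in wt and 11 fell in het (median -0.42 and -0.47). Ccne1, cyclin E1, fell by 2.42 ± 0.094 and Mki67 rose by 0.29 ± 0.096 in wt. The part of proliferation in the members' levels was not tested.

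The courses of the members over the 24 libraries were compared by correlation, a description in which the points share lines and days. Pearson r of log2 CPM was 0.96 between Cbx1 and Hells, 0.95 between Trim28 and Ehmt2 and 0.87 between Trim28 and Setdb1. Ehmt2 also followed Cbx1 and Hells, with r of 0.86 for each, and Trim28 followed these with r of 0.78. Suv39h1 ran opposite to Hells and to Cbx1, with r of -0.89 for each. Among 12457 genes that had 50 or more counts on average, the gene most like a member was L3mbtl2 for Trim28 (r 0.99), Plekhm1 for Ehmt2 (0.98), Tet1 for Hells (0.98) and Gm26582 for Cbx1 (0.98). It was Zfp703 for Suv39h1 (0.96), Mrps2 for Setdb1 (0.96), Banf1 for Ehmt1 (0.91) and Zmym2 for Cbx5 (0.90). For Cbx3 the closest gene was less alike (Ssb, 0.83).

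The comparison of het with wt asked whether loss of 1 copy of Smchd1, a chromatin protein of gene silencing, altered these genes. None of the 10 members passed the edgeR test on any day, or with the counts of each line summed over the 4 days. The background was 0% of genes called at day 0 and at day 2.5, 0.551% at day 2, 0.00638% at day 3 and 0.00544% for the summed counts. Smchd1 itself was called at day 2 (log2 fold change -0.75 ± 0.094, adjusted p = 0.00824) and day 3 (-0.88 ± 0.098, adjusted p = 0.0307) and not at day 0 (-0.61 ± 0.083, adjusted p = 0.1004) or day 2.5 (-0.60 ± 0.113, adjusted p = 0.907). Its call at day 2 was lost without any 1 het line (adjusted p = 0.0578 to 0.0740) and that at day 3 without wt line 2, wt line 3, het line 1 or het line 3 (0.133 to 0.444). At an unadjusted p under 0.05, 3 of 10 members differed at day 0 (10.9% of all genes), 3 at day 2 (10.2%), 0 at day 2.5 (5.27%) and 0 members at day 3 (9.13%), and the DESeq2 Wald test also called 0 members on each day. The 95% confidence intervals of the 40 differences lay within -0.54 and 0.51 on the log2 scale, so changes of the size of those between day 0 and day 3 in Trim28, Ehmt2, Cbx1 or Hells lie outside them. Smaller differences inside these intervals are not excluded. The smallest difference that 3 lines a group could detect was not tested.

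The largest differences were those of Cbx5, Ehmt2 and Hells. Cbx5 at day 0 was at 474, 649 and 606 CPM in wt lines and at 694, 736 and 743 CPM in het lines, without overlap (log2 fold change 0.32 ± 0.089, interval 0.12 to 0.51, adjusted p = 0.334). At day 2 it was at 703 to 737 CPM in wt and at 823 to 870 CPM in het, again without overlap (0.23 ± 0.073, adjusted p = 0.240), and at day 3 the groups overlapped (0.02 ± 0.094). Hells was higher in het without overlap at day 0 (0.16 ± 0.067, adjusted p = 0.414) and at day 2 (0.25 ± 0.096, adjusted p = 0.367, and 0.14 without wt line 3, adjusted p = 0.751). Ehmt2 at day 0 was lower in het (-0.31 ± 0.106, adjusted p = 0.369), but the wt line 2 at 289 CPM lay among the het lines. Without that line the difference of Ehmt2 was -0.44 with an adjusted p of 0.0317, and without wt line 1 it was -0.23 (adjusted p = 0.439). In wt at day 0, line 1 was the lowest of the 3 lines for 7 of the 10 members, and without it the difference of Cbx5 was 0.20 and that of Hells 0.10. The share of all genes that were lowest in line 1 was not counted. Across genes, line 1 correlated less with line 2 and line 3 (Pearson r 0.960 and 0.966) than these did with each other (0.986). Groups did not overlap for 2 members at day 0 (16.7% of all genes), 4 at day 2 (16.0%), 1 at day 2.5 (11.4%) and 0 at day 3 (13.9%). All of these members were higher in het, and among all genes 9.38%, 8.08% and 6.15% were higher without overlap on the first 3 of these days. The 4 members at day 2 were Cbx5, Hells, Setdb1 and Trim28, and the member at day 2.5 was Cbx1. The extraembryonic endoderm markers moved beside these differences, with 10 of 14 tested called lower in het at day 2 and a median log2 fold change over the list of -0.85, -1.06, -0.47 and -0.75 on the 4 days in turn. Their part in the differences of the members was not tested.

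**Figure D4:**
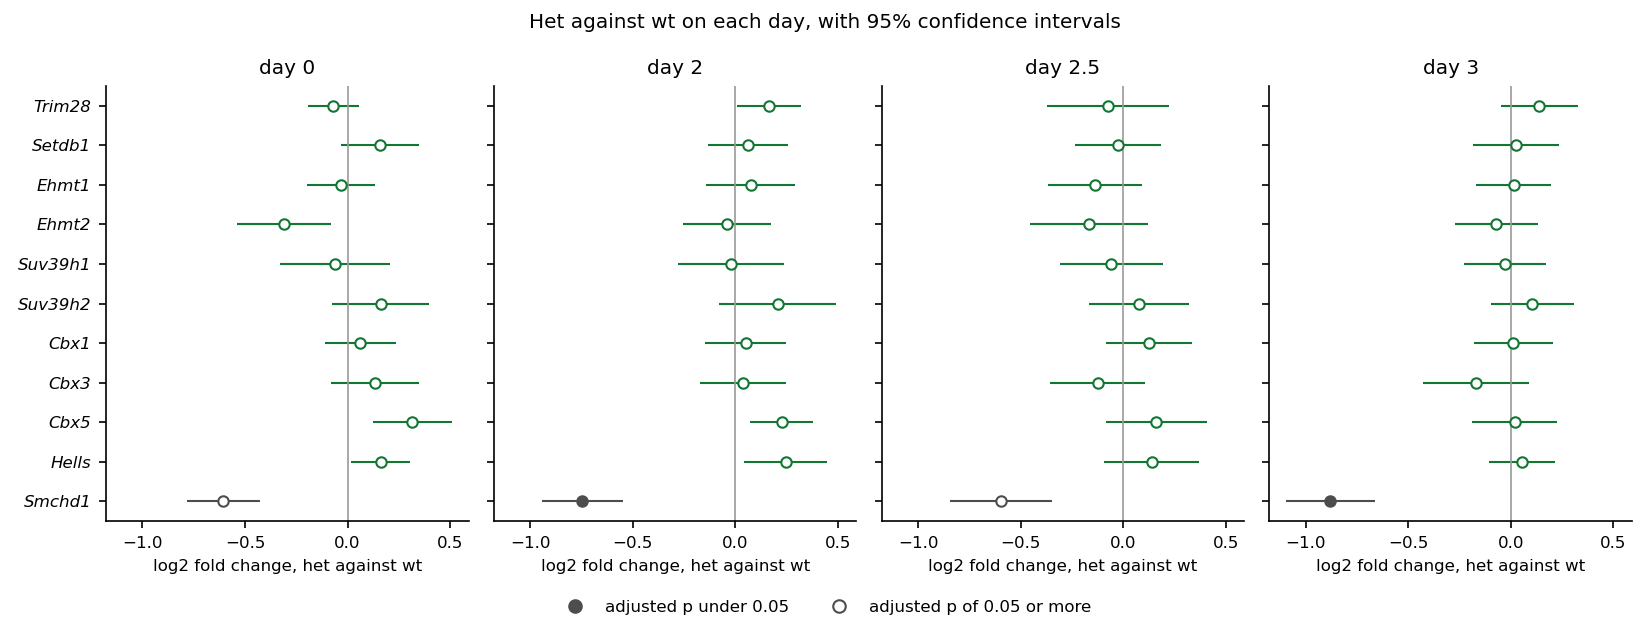
Log2 fold change of het against wt for the 10 members and for Smchd1 on each day (horizontal axis, points with 95% confidence intervals), filled where the adjusted p is under 0.05. No member is filled on any day, Cbx5 and Hells lie to the right of 0 at day 0 and day 2, and Smchd1 lies left of 0 throughout.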

How the data were processed

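RNA-seq libraries of 6 mESC lines on 4 days were used, with groups taken from the labels. The authors trimmed single-end reads with Trim Galore 0.4.4, aligned them with HISAT2 2.0.5 to GRCm38.p6 and counted genes in SeqMonk. The deposited table used here holds raw counts per gene, with no normalization. Which kit, stranded or not, was used for a library and how reads in overlapping genes were assigned are not given in the sources used here. Beside the counts the authors deposited 8 columns of mean signal per group, which were not used, nor were smaller deposited tables of log2 RPKM values for chosen genes. All columns of per-sample counts matched a label, with 0 left over.

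The counts went into edgeR 4.0.16 (R 4.3.3) with TMM composition factors, filterByExpr by group and the quasi-likelihood test across all genes. A gene is called when its adjusted p (Benjamini-Hochberg) is under 0.05. SE is the log2 fold change divided by the square root of the F statistic, and intervals use its degrees of freedom. CPM values are TMM-scaled, and correlations used log2 CPM with a prior count of 0.5. Days were compared within each genotype, het with wt on each day and on counts summed per line, and genotype by day interactions were fitted. The replicate is the line. Lines are separate blastocyst derivations and the days of a line are repeated measures, so the line number pairs samples across days but not across genotypes. Deviations of a line from its group means on pairs of days correlated at -0.10 to 0.47 (median 0.076, 7 of 24 over 0.1). Intervals cover the spread between 3 lines. The procedure was tested on simulated counts for day 3 against day 0 in wt only. These had the same dispersion for all genes and no line effect, so they do not cover the repeated measures of a line.

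The 10 members and all lists were chosen with earlier results of these data known. Beside the members, the text names Smchd1, the gene most correlated with each member, and, from each list, the higher and the lower gene with the smallest adjusted p in wt for day 3 against day 0. Mecom and Prdm2 are named outside this rule, for their levels. Prdm16 and Zfp57 had no higher counterpart past the threshold in their lists, and 2 genes that this rule names are not reported here. Promoters and start sites are from RefSeq (GRCm38.p6), where 10 of 10 members matched by symbol, and stretches inside exons were trimmed to at most 30 bases. Exons are from GENCODE vM21, whose coordinates matched the count table for 10 of 10 members. Alternatives were the Wald test and the size factors of DESeq2 1.42.0, scaling by library totals, a filter at 1 count or at a mean of 50 counts, all 24 libraries in one fit, the line as a replicate block and each line left out. Python 3.11.15 and matplotlib 3.10.9 made the figures.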

Additional observations from a re-analysis of the deposited data

How the results depend on the processing

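Where members had been called, 72 of 80 counts of members called under another setting stayed within 1.5 times the reported one. Where none had been called, 101 of 103 stayed at 0. Counts over all genes moved further in 53 of 183 cases. Of 840 fold changes of members and Smchd1 under another setting, 48 lost a call, 39 gained one and 17 turned sign, as did 64 of 1042 values of other fold changes of members, all with an unadjusted p of at least 0.05. For het against wt at day 0 the count was 2 of 10 with no filter beyond 1 count (Ehmt2 and Cbx5) and 0 to 1 when a library was left out, the 1 being without wt line 2. Leaving out a line gave 3 to 5 members for day 2 against day 0 in wt (3 without line 3), 2 to 5 for day 2.5 against day 2 in wt (2 without line 2 or line 3), 0 to 2 for day 3 against day 2.5 in wt (0 without line 2, 1 without line 3) and 2 to 4 for that step in het (2 without line 3). For day 3 against day 2.5 in wt, one fit of all 24 libraries gave 5 members, as did the replicate block, and over all genes the count of 2923 became 4687 with the block and 29 without wt line 2. The block changed, beside the calls given with the members above, no other call of a member. Signs turned for values that had not been called. With library totals, Ehmt1 at day 2.5 against day 2 in wt was at 0.0023 and Cbx5 at day 3 against day 0 in het at 0.081. At day 3 against day 2.5 in wt, Suv39h1 was at -0.0068 with no filter beyond 1 count and at -0.0030 in one fit of all libraries, and Hells at -0.0056 and -0.0014. Over fits that left out a line, Suv39h1 at that step ran from -0.043 (without line 2) to 0.030 in wt and from -0.11 (without line 1) to 0.15 in het, Hells from -0.034 (without line 2) to 0.042 in wt and from -0.18 to 0.050 (without line 3) in het, and Cbx5 for het against wt at day 3 from -0.053 (without wt line 1) to 0.087. In these fits, Cbx3 at day 2 against day 0 in wt ran from -0.16 to 0.029 (the latter without line 2), Ehmt1 at day 2.5 against day 2 in wt from -0.083 to 0.043 (without line 3) and Cbx5 at day 3 against day 0 in het from -0.11 to 0.055 (without line 3). Library totals moved the median of all genes by 0.12 on the log2 scale for day 3 against day 0 in het. With no filter beyond 1 count, genes called for het against wt numbered 369, 384, 87 and 274 on the 4 days and 190 for the summed counts, against 0, 85, 0, 1 and 1. Leaving out a line gave 0 to 68, 0 to 211, 0 to 3, 0 to 93 and 0 to 404. The cause of these changes was not tested. Equal numbers in wt and het do not denote the same line, and deviations of such lines correlated at -0.15 to 0.18.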
